A study of Rattus norvegicus with 6 samples.

Results

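Whether the liver's response to a diet rich in sucrose and fat depended on the protein level of the diet was examined in 4 of the 6 arrays of the series. The response at each protein level was the log2 level on the high sucrose, high fat diet minus that on the low fat diet, and the response at normal protein was then subtracted from that at high protein. The 4 liver pools were HP-HS-HF (high protein, high sucrose, high fat), HP (high protein, low fat), NP-HS-HF (normal protein, high sucrose, high fat) and NP (normal protein, low fat). All rats were adult male Wistar rats that ate the normal protein diet for 10 days of adaptation and then their own diet for 5 weeks, and livers were taken 2 h after a fixed meal (87.6 kJ). One label field names mice as the source, but rat is the organism given elsewhere in the labels. Liver RNA from the 5 rats of a diet was pooled before labelling, so each diet had 1 pool on 1 array, without a replicate. The values below therefore carry no SD, SE or p-value, and differences between rats cannot be told apart from differences between diets. The pools of the high sucrose, low fat diets (HP-HS and NP-HS) did not enter the subtraction and are given beside it.

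The liver turns fructose from sucrose into fat through the lipogenic enzymes that ChREBP and SREBP1c switch on, whereas fatty acids from dietary fat activate PPAR alpha, the receptor that drives fatty acid oxidation. A diet high in protein raises the breakdown of amino acids and the synthesis of glucose from them in hepatocytes. These programmes share substrates and hormones, so the response to sugar and fat can differ with the protein supply.

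Of 29214 probe sets, 20450 passed a filter on low levels, of which 11421 each stood for 1 named gene. The pools' pairwise correlations lay between 0.9949 and 0.9964. Hepatocyte markers were at the top of the scale in every pool, with Ttr, which encodes transthyretin, between 13.4 and 13.5. Of 13 lymphocyte and neutrophil markers, 6 passed the filter (Cd8a, Cd4, Cd79b, Nkg7, Gzmb and Mpo) and 7 did not (Cd3d, Cd3e, Cd3g, Ms4a1, S100a8, S100a9 and Ltf). In such whole-liver RNA, fewer cells of a type and less RNA per cell cannot be told apart.

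Over all probe sets, the responses at high and at normal protein were similar in number but involved mostly different probe sets. Among the 11421 named genes, 66 had a response of 1.5-fold or more at high protein and 90 at normal protein. A difference of 1.5-fold or more between HP-HS-HF and HP was seen for 243 probe sets, 1.19 percent of those that passed the filter, with 131 higher (0.641 percent) and 112 lower (0.548 percent). Between NP-HS-HF and NP it was seen for 237, 1.16 percent, with 109 higher and 128 lower. Of those 237, 22 were kept at high protein, meaning 1.5-fold or more in the same direction. A further 55 were partly kept, between 1.2-fold and 1.5-fold in the same direction. Lost, meaning under 1.2-fold either way at high protein, were 121, and 39 were reversed, by 1.2-fold or more in the opposite direction. The kept share was 9.28 percent, above that of all probe sets at high protein (0.641 percent higher and 0.548 percent lower by 1.5-fold). The lost share was 51.1 percent. Of all 20450 probe sets, 2439 reached 1.2-fold at high protein, so most lay under the limit for lost. The order of the classes depends on these limits: with lost set under 1.1-fold, 69 were lost and 84 partly kept, and among responses of 2-fold or more 13 were lost and 13 partly kept. Akr1c2 at 0.59 and Cfap126 at 0.58 were the named genes just inside and just outside the 1.5-fold limit at normal protein.

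Choosing probe sets on 1 difference makes the other look smaller, so the classes were also counted from the high protein side. Of the 243 responses at high protein, 22 were kept at normal protein, 43 partly kept, 132 lost and 46 reversed, close to the counts above. The median size of the 237 responses at normal protein was 0.72 on the log2 scale, and the same probe sets moved by a median of 0.08 in that direction at high protein. From the other side, the median size was 0.71 at high protein and 0.07 at normal protein. Across all 20450 probe sets the responses at high and normal protein had a Pearson correlation of 0.0049 and a Spearman correlation of -0.053, as a description, since probe sets are not independent replicates. The responses share no array. At 1.5-fold or more in both, 22 probe sets had the same direction and 11 opposite directions. A 2-fold limit left 36 responses at high protein (0.176 percent), of which 16 were lower (0.0782 percent), and 34 at normal protein, of which 10 were higher (0.0489 percent). The same direction was then seen for 3 probe sets and opposite directions for 1.

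**Figure D1:**
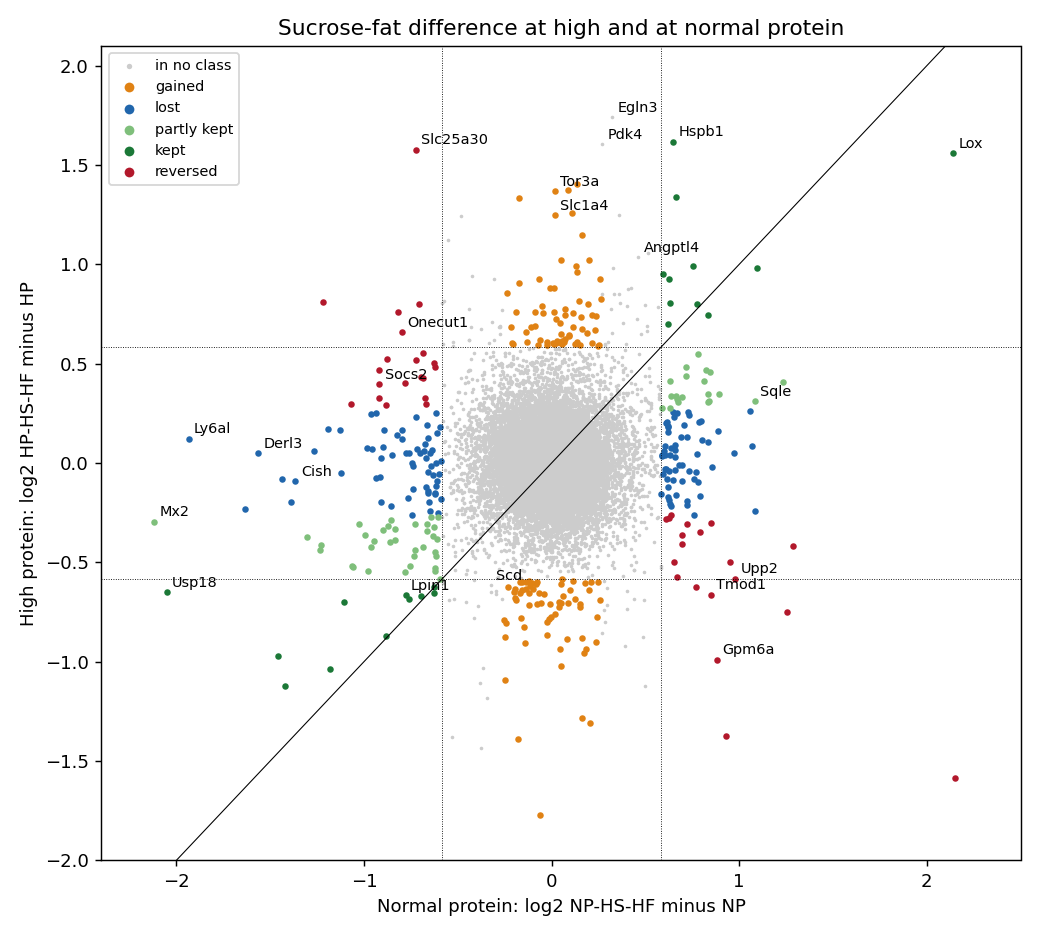
Each point is 1 of 20450 probe sets, with the log2 difference between NP-HS-HF and NP on the horizontal axis and that between HP-HS-HF and HP on the vertical axis. Dotted lines mark 1.5-fold and the solid line equal responses. Few points follow the solid line: of 237 responses at normal protein, 22 (9.28 percent) were kept, 121 lost and 39 reversed at high protein. Of all 20450 probe sets, 2439 reached 1.2-fold at high protein, so most lay under the limit for lost.

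**Figure D2:**
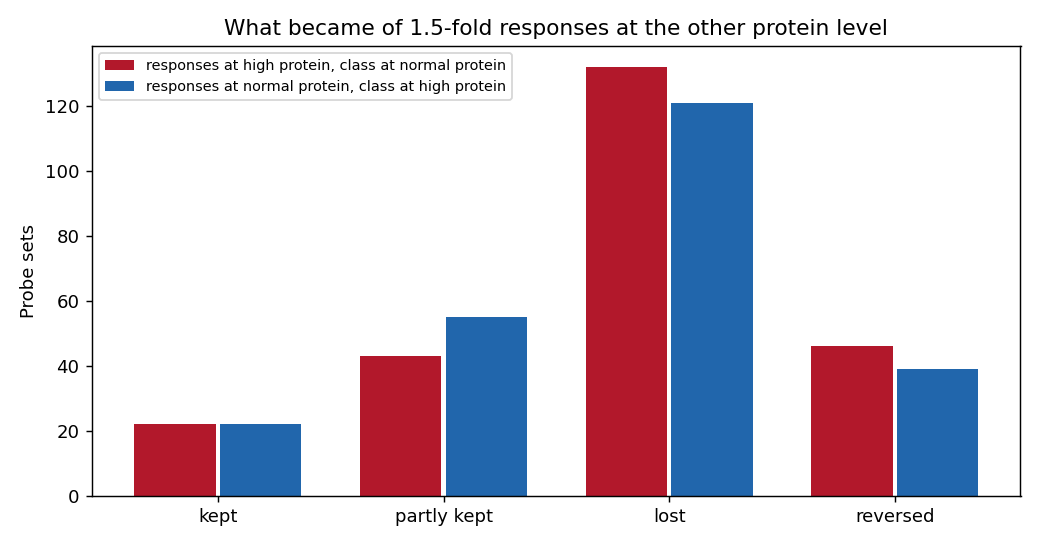
Bars give the number of probe sets in each class, for 243 responses at high protein classed by their difference at normal protein (red) and for 237 responses at normal protein classed by their difference at high protein (blue). With lost set under 1.2-fold, the lost class holds 132 and 121. Of all 20450 probe sets, 2439 reached 1.2-fold at high protein and 2397 at normal protein. At normal protein, a limit of 1.1-fold gives 69 lost and 84 partly kept.

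The difference between the responses, high minus normal protein, reached 1.5-fold for 673 probe sets, 3.29 percent, with 375 (1.83 percent) higher and 298 (1.46 percent) lower. When each array was centred on its own median, the share higher among such probe sets was 39.9 percent in place of 55.7 percent. At 2-fold or more there were 105 (0.513 percent), with 62 higher (0.303 percent). The difference combines 4 single arrays and spread wider over the probe sets than either response. That alone brings more probe sets past a limit than for either response (243 and 237 at 1.5-fold). Among named genes the count at 1.5-fold was 249 of 11421 (2.18 percent), with 117 higher and 132 lower. Of 8356 probe sets without 1 gene symbol, 411 reached it, with 250 higher and 161 lower. Shares of all probe sets given beside the gene lists below include these, whereas list members are named genes. The 673 did not come from 1 pool. The pool farthest from the median of the 4 was HP-HS-HF for 193, HP for 163, NP-HS-HF for 167 and NP for 150. In interferon-stimulated, protein folding and cholesterol synthesis genes, among other groups, the NP pool's median lay farthest from the genes' mean over the 6 pools, which touches their results below. For interferon-stimulated genes the NP-HS-HF pool lay nearly as far out on the other side, with a median of -0.17 relative to that mean, against 0.19 in NP.

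Of the 90 named genes with a response at normal protein, 7 kept it at high protein. Of all 11421 named genes, 66 reached 1.5-fold at high protein in either direction. Lox, the lysyl oxidase that cross-links collagen (probe set 10804463), was at 8.23 in the HP-HS-HF pool against 6.67 in the HP pool, and at 7.55 in the NP-HS-HF pool against 5.41 in the NP pool. Its response was 2.95-fold at high protein and 4.41-fold at normal protein, and the HP-HS and NP-HS pools lay between, at 7.00 and 6.90. Efna1, a ligand of Eph receptors, was at 9.90 in HP-HS-HF against 9.10 in HP, and at 9.68 in NP-HS-HF against 8.91 in NP. Its responses, 1.74-fold and 1.71-fold, were nearly equal. Rab30, a small GTPase of the Golgi, had responses of 0.70 at high and 0.62 at normal protein. Hspb1, the small heat shock protein HSP27, was higher with sucrose and fat at both protein levels, but by 1.62 at high protein and by 0.65 at normal protein.

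Lpin1, a phosphatidate phosphatase of triglyceride synthesis that also acts as a coactivator in the nucleus, was the kept gene with near equal lower values. Lpin1 was at 9.62 in HP-HS-HF against 10.29 in HP, and at 9.71 in NP-HS-HF against 10.48 in NP. Both high sucrose pools, HP-HS at 10.48 and NP-HS at 10.40, were as high as the low fat pools. The other kept genes were Iqub, higher by 0.95 and 0.59, and Usp18, which is described with the interferon-stimulated genes. A second probe set of Iqub was at 0.64 and 0.09.

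Lower values with sucrose and fat at normal protein that were absent or smaller at high protein were frequent among interferon-stimulated genes, which cells switch on when they sense interferon. Of 30 members that passed the filter, 11 were lower by 1.5-fold or more in NP-HS-HF than in NP (0.626 percent of all probe sets were lower by as much) and 1 was lower in HP-HS-HF than in HP. The list's median response was -0.14 at high protein and -0.36 at normal protein, and that of all named genes was -0.01 and 0.01. Of the 11, Usp18 was kept, 6 were partly kept and 4 were lost. The difference of the responses was 1.5-fold or more for 10 members, all higher (1.83 percent of all probe sets).

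Mx2, a GTPase of the antiviral Mx family, was at 6.97 in HP-HS-HF against 7.26 in HP, and at 6.91 in NP-HS-HF against 9.03 in NP. Isg15, a ubiquitin-like modifier, was at 6.56 in HP-HS-HF against 6.50 in HP, and at 6.42 in NP-HS-HF against 7.69 in NP. Usp18, the enzyme that removes Isg15 from proteins, was at 7.24 in HP-HS-HF against 7.90 in HP, and at 7.00 in NP-HS-HF against 9.05 in NP. In each of these genes the NP pool was the highest of the 4. Ifit1, which binds viral RNA, and Oas1a, an oligoadenylate synthetase, had responses of -0.08 and -0.23 at high protein and of -1.44 and -1.63 at normal protein. Irf7, the transcription factor that amplifies interferon production, had -0.37 and -1.31. Ly6al, a gene of the Ly6 family outside the list, was at 5.99 in HP-HS-HF against 5.87 in HP, and at 5.34 in NP-HS-HF against 7.28 in NP.

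The NP pool was the highest of the 6 pools for 20 of the 30 members, against 17.1 percent of all probe sets. In the HP-HS and NP-HS pools Mx2 stood at 7.11 and 7.33 and Isg15 at 6.36 and 6.71, below the NP pool in both genes. The NP-HS-HF pool was the lowest of the 6 for 16 of the 30, against 17.7 percent of all probe sets. With the high sucrose pools as the reference in place of the low fat pools, the list's median response was -0.06 at high and -0.20 at normal protein, and 4 members in place of 11 were lower by 1.5-fold at normal protein. Macrophage markers had a median response of -0.15 at high and -0.05 at normal protein, and 0 of 13 differed by 1.5-fold at either level. Of 6 lymphocyte and neutrophil markers that passed the filter 0 did so too, and their medians were 0.05 and -0.11. The part of these cells in the result was not tested.

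Promoters of some of these genes are shown because many list members share an interferon response element, searched as GAAANNGAAA on both strands. In RefSeq promoters of the rat build GRCr8, from 250 bases before to 50 bases after the start of the gene, 3.92 percent of 33469 promoters held the motif. Of the 30 list members 23 had a promoter in that table and 15 of them held the motif. Among the 11 members lower at normal protein, 7 had a promoter and 4 the motif. The stretches below are from Irf7 (chr1:205800038-205800137, minus strand), Oas1a (chr12:41330380-41330485, plus strand) and Oas1b (chr12:41395851-41395956, minus strand), written 5′ to 3′, with the motif in capitals (in Irf7 as its reverse complement). In Oas1a and Oas1b, which are close copies and may share probe signal, 2 overlapping matches form the capitals. A match describes the letters and is no evidence of binding in these livers.
Irf7: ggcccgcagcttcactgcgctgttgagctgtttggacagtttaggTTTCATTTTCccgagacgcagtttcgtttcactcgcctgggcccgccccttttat
Oas1a: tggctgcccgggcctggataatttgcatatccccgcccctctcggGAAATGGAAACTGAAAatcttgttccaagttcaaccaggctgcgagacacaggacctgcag
Oas1b: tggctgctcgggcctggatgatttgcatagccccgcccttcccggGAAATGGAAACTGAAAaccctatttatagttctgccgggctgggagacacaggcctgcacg

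Genes of protein folding in the endoplasmic reticulum, which the unfolded protein response controls through ATF6 and XBP1, had a lower median with sucrose and fat at normal protein and one near 0 at high protein. Over the 21 members of that list there was a median response of 0.03 at high and -0.25 at normal protein, with 12 and 1 members above 0, and 3 were lower by 1.5-fold or more at normal protein (0.626 percent of all probe sets). The difference of the responses was above 0 for 19 members (46.7 percent of all named genes) and 1.5-fold or more for 7, all higher (1.83 percent of all probe sets). Derl3, which helps to pull misfolded proteins out of the endoplasmic reticulum, was at 7.87 in HP-HS-HF against 7.82 in HP, and at 7.77 in NP-HS-HF against 9.34 in NP. Creld2, a folding factor, was reversed, at 9.75 in HP-HS-HF against 9.32 in HP, and at 9.26 in NP-HS-HF against 9.96 in NP. The other 5 were Sdf2l1 (0.12 at high and -0.80 at normal protein), the chaperone Hyou1 (0.21 and -0.58), the co-chaperone Dnajb11 (0.26 and -0.44), the secreted factor Manf (0.27 and -0.38) and the disulfide isomerase Pdia4 (0.15 and -0.45). The main chaperone of the compartment, Hspa5, differed less, by 0.06 and -0.25.

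The NP pool was the highest of the 6 pools for 17 of these 21 genes, against 17.1 percent of all probe sets. Derl3 stood at 7.72 in HP-HS and 8.64 in NP-HS, so the NP-HS pool was next highest after NP. Against the high sucrose pools, the list's median response was 0.10 at high and -0.15 at normal protein, and 2 members in place of 7 had a difference of the responses of 1.5-fold or more. The endoplasmic reticulum stress element, searched as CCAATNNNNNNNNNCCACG on both strands, was in 0.0657 percent of the 33469 promoters. Of 16 list members with a promoter, 8 held it. The stretches of Derl3 (chr20:12766556-12766664, minus strand) and Creld2 (chr7:121789194-121789302, plus strand) are shown because these genes had the largest differences of the list, with the element, here on the opposite strand, in capitals.
Derl3: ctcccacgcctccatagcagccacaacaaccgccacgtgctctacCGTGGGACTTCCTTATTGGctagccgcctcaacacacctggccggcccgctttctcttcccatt
Creld2: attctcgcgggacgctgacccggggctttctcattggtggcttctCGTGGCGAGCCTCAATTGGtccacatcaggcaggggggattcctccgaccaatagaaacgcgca

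**Figure D3:**
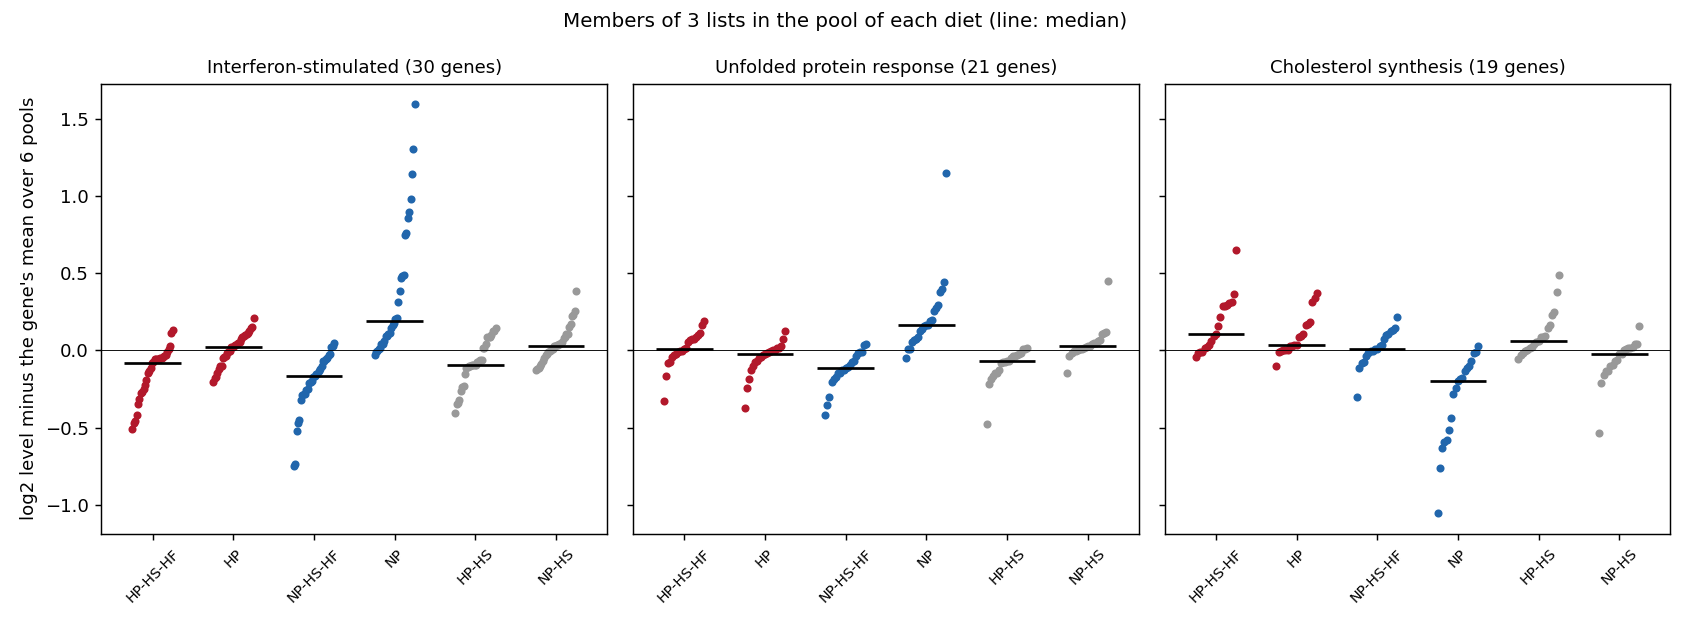
Each point is 1 gene's log2 level minus its mean over the 6 pools, and the line is the median over the genes of a list. The NP pool has the highest median for interferon-stimulated genes (0.19) and unfolded protein response genes (0.16) and the lowest for cholesterol synthesis genes (-0.20).

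Feedback genes of growth hormone signalling, which STAT5 switches on in hepatocytes, gave a pattern in which the NP-HS-HF pool and not the NP pool was apart. Cish, an inhibitor of cytokine receptors, was at 8.64 in HP-HS-HF against 8.73 in HP, and at 7.34 in NP-HS-HF against 8.71 in NP. Socs2, another inhibitor of the growth hormone receptor, was at 9.52 in HP-HS-HF against 9.12 in HP, and at 8.54 in NP-HS-HF against 9.46 in NP. Prlr, the prolactin receptor, was at 7.71 in HP-HS-HF against 7.67 in HP, and at 7.07 in NP-HS-HF against 7.92 in NP. Cish was thus lost by the definition above, Socs2 reversed and Prlr lost, and in each the NP-HS-HF pool was the lowest of the 4. Of the high sucrose pools, HP-HS was low in Cish and Socs2, at 7.59 and 8.33, and NP-HS was high, at 8.49 and 9.72, whereas Prlr was at 7.99 in HP-HS and 6.87 in NP-HS. Against the high sucrose pools the difference of the responses of Prlr turned to -0.48.

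Other members of the growth hormone list were flat or went the other way. Igfbp1, an IGF binding protein, and the female-specific Cyp2c12 were partly kept, higher by 0.49 and 0.41 at high protein and by 0.72 and 0.63 at normal protein. Igf1, the main endocrine product of growth hormone action, had responses of -0.09 and -0.12 at high and normal protein, and the receptor Ghr had -0.18 and 0.03. The male-specific Cyp2c11 had -0.05 and 0.01. The list of 15 had a median of 0.00 at high protein and 0.01 at normal protein, with 4 members whose difference of the responses was 1.5-fold or more, all higher (1.83 percent of all probe sets). At normal protein 2 members were higher and 3 lower by 1.5-fold. The fourth of the 4 was Igfbp2, another IGF binding protein, at 6.15 in HP-HS-HF against 5.61 in HP, and at 5.59 in NP-HS-HF against 5.90 in NP. The GAS motif, which STAT5 binds, searched as TTCNNNGAA (its own reverse complement), was in 8.87 percent of promoters and in 2 of 14 list members with a promoter. The stretch of Cish (chr8:116850719-116850903, plus strand) is shown because it holds 4 matches, in capitals.
Cish: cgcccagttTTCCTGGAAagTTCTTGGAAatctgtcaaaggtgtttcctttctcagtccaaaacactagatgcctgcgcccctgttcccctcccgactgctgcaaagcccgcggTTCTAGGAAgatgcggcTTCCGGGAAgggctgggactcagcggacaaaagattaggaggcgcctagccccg

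Cholesterol synthesis genes, which SREBP2 switches on when sterols are scarce, had a higher median with sucrose and fat at normal protein and one near 0 at high protein. The list of 19 had a median response of 0.02 at high and 0.23 at normal protein. At normal protein 18 of 19 members were above 0 and 5 were higher by 1.5-fold or more (0.533 percent of all probe sets were higher by as much). At high protein 10 of 19 were above 0 and 0 differed by 1.5-fold. Of the 5, Sqle and Idi1 were partly kept, and Msmo1, Cyp51 and Insig1 were lost. A second probe set of Insig1 had 0.06 at high and 0.53 at normal protein, under the limit for a class.

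Sqle, squalene epoxidase, was at 7.52 in HP-HS-HF against 7.21 in HP, and at 6.89 in NP-HS-HF against 5.81 in NP. Msmo1, a sterol methyl oxidase, was at 9.48 in HP-HS-HF against 9.43 in HP, and at 9.41 in NP-HS-HF against 8.63 in NP. Insig1, which holds SREBP back in the endoplasmic reticulum, was at 9.95 in HP-HS-HF against 10.04 in HP, and at 9.73 in NP-HS-HF against 9.08 in NP. In each of the 3 the NP pool was low and the HP pool was already as high as, or higher than, the NP-HS-HF pool. The NP pool was the lowest of all 6 for 14 of the 19 genes, against 15.8 percent of all probe sets. When the high sucrose pools were the reference, the median difference of the responses was 0.02 in place of -0.31, and those of Sqle and Msmo1 turned to 0.17 and 0.01.

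Lost responses that were higher at normal protein outside this list also had the NP pool as the lowest of the 4 in the genes named here. Slc2a12, a glucose transporter, was at 7.17 in HP-HS-HF against 7.19 in HP, and at 7.23 in NP-HS-HF against 6.38 in NP. Spink1, a secreted inhibitor of serine proteases, was at 7.64 in HP-HS-HF against 7.38 in HP, and at 7.89 in NP-HS-HF against 6.83 in NP. Acmsd, which diverts tryptophan breakdown from NAD synthesis, was at 8.96 in HP-HS-HF against 9.02 in HP, and at 8.32 in NP-HS-HF against 7.73 in NP. Among all 59 lost responses that were higher at normal protein, the mean of the HP-HS-HF and HP pools lay nearer the NP-HS-HF pool in 41 and nearer the NP pool in 18. Among the 62 that were lower, it lay nearer the NP-HS-HF pool in 26 and nearer the NP pool in 36. The HP-HS pool, which the classes did not use, lay nearer NP-HS-HF in 47 of the 67 probe sets in which the 2 other high protein pools did, and in 14 of the remaining 54. The NP-HS pool, also unused, lay nearer NP-HS-HF in 36 of the 67 and in 18 of the 54. These positions are measured between the NP and NP-HS-HF pools, which also chose the probe sets. The counts are therefore not independent of that choice. Against the high sucrose pools the difference of the responses of Slc2a12 turned to 0.22.

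Reversed responses included the gene with the largest positive difference of the responses among named genes. Slc25a30, a carrier of the inner mitochondrial membrane (probe set 10785326), was at 9.73 in HP-HS-HF against 8.15 in HP, and at 7.80 in NP-HS-HF against 8.52 in NP. That is 2.98-fold higher at high protein and 1.65-fold lower at normal protein, and the HP-HS and NP-HS pools were at 7.71 and 7.93. Onecut1, the liver transcription factor HNF6 (probe set 10911570), was at 10.83 in HP-HS-HF against 10.17 in HP, and at 9.40 in NP-HS-HF against 10.20 in NP. The level of Onecut1 in HP minus that in NP was -0.03, and that in HP-HS-HF minus that in NP-HS-HF was 1.42. Cd80, a costimulatory ligand of T cells, was at 5.83 in HP-HS-HF against 5.50 in HP, and at 4.79 in NP-HS-HF against 5.71 in NP. The NP-HS-HF value of Cd80 lay below log2 5.14, the filter level for the mean of the 6 pools.

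In the opposite direction, Gpm6a, a membrane glycoprotein known from neurons (probe set 10791552), was at 7.45 in HP-HS-HF against 8.44 in HP, and at 8.54 in NP-HS-HF against 7.66 in NP. Upp2, a uridine phosphorylase of the liver (probe set 10836312), was at 9.96 in HP-HS-HF against 10.54 in HP, and at 10.47 in NP-HS-HF against 9.50 in NP. Tmod1, which caps actin filaments (probe set 10868817), was at 7.11 in HP-HS-HF against 7.77 in HP, and at 7.36 in NP-HS-HF against 6.51 in NP. For Upp2 and Tmod1 the HP pool was the highest and the NP pool the lowest of the 4. Gpm6a had 2 high pools, NP-HS-HF and HP, and 2 low ones. Slc35c2, of the nucleotide sugar transporter family, had responses of -0.41 at high and 0.70 at normal protein, and the DNA repair factor Xpa had -0.26 and 0.64. Against the high sucrose pools, the difference of the responses of Tmod1 turned to 0.09, while those of Slc25a30, Onecut1, Gpm6a and Upp2 kept their direction.

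A2m, the acute phase protein alpha-2-macroglobulin, was at 6.91 in HP-HS-HF against 7.78 in HP, and at 7.78 in NP-HS-HF against 7.29 in NP. Its response at normal protein was 1.40-fold, under the limit for a class, and its difference of the responses turned to 0.11 with the high sucrose pools as the reference. Of the other acute phase genes, Mt1, a metallothionein, had a difference of the responses of 1.5-fold or more, with -0.06 at high and 0.54 at normal protein. The list of 24 had medians of 0.04 at high and 0.10 at normal protein.

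Responses at high protein that were small or absent at normal protein included genes of fuel use and of oxygen sensing. Pdk4, the kinase that shuts off pyruvate dehydrogenase and so spares glucose when fat is burnt, was at 11.29 in HP-HS-HF against 9.69 in HP, and at 10.27 in NP-HS-HF against 10.00 in NP. The response of Pdk4 was 1.60 at high protein and 0.27 at normal protein on the log2 scale, and the HP-HS and NP-HS pools were at 9.54 and 9.68. Plin2, which coats lipid droplets, was at 10.49 in HP-HS-HF against 9.80 in HP, and at 9.89 in NP-HS-HF against 9.98 in NP. Angptl4, an inhibitor of lipoprotein lipase and a PPAR alpha target, was higher by 1.04 at high protein and by 0.46 at normal protein. Angptl8, a related inhibitor, was higher by 0.50 at high protein and lower by 0.12 at normal protein. These genes had their highest value of the 4 pools in HP-HS-HF.

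Other targets of PPAR alpha had smaller differences than Pdk4. The list of fatty acid oxidation genes had a median response of 0.05 at high and -0.05 at normal protein over 25 members, with 17 and 9 above 0. The difference of the responses was above 0 for 19 of the 25, where 46.7 percent of all named genes were above 0. Cpt1a, the gate of mitochondrial fatty acid uptake, had 0.03 and -0.11, and the peroxisomal enzyme Ehhadh had 0.09 and -0.12. The mitochondrial isomerase Eci1 (0.17 and -0.49) and the thioesterase Acot2 (0.12 and -0.52) were the 2 members higher by 1.5-fold or more in the difference of the responses (1.83 percent of all probe sets). In both, the lower value at normal protein, and not a higher one at high protein, made up most of the difference. Fgf21, a hormone of fasting and of low protein intake, had 0.09 and -0.40.

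Egln3, the prolyl hydroxylase PHD3 that marks HIF for degradation, was at 8.83 in HP-HS-HF against 7.09 in HP, and at 6.50 in NP-HS-HF against 6.18 in NP. The response was 3.34-fold at high protein and 1.25-fold at normal protein. Ankrd37, a target of HIF, was at 7.27 in HP-HS-HF against 6.66 in HP, and at 6.50 in NP-HS-HF against 6.49 in NP. P4ha1, a subunit of collagen prolyl hydroxylase, was higher by 0.61 at high protein and by 0.14 at normal protein. Other targets of HIF differed little, with Vegfa at 0.25 and -0.03, Slc2a1 at -0.10 and -0.08 and Pdk1 at -0.11 and -0.13. Over the 20 members of the list 3 were higher by 1.5-fold at high protein (0.641 percent of all probe sets) and 0 at normal protein, with medians of 0.08 and 0.01. The HP-HS-HF pool was the highest of the 6 pools for 10 of the 20, against 19.6 percent of all probe sets.

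Slc1a4, a transporter of neutral amino acids, was at 9.01 in HP-HS-HF against 7.76 in HP, and at 6.63 in NP-HS-HF against 6.61 in NP. HP-HS at 7.75 and NP-HS at 6.69 matched the low fat pools of their protein level, so the HP-HS-HF pool was alone at the top. The torsin family ATPase Tor3a was at 8.25 in HP-HS-HF against 6.88 in HP, and at 6.62 in NP-HS-HF against 6.60 in NP. Rgs4, which damps G protein signalling, and Map1b, which binds microtubules, were higher by 0.99 and 0.96 at high protein and by 0.13 and 0.14 at normal protein. Other amino acid transporters did not follow Slc1a4, and the list of 17 had medians of -0.08 at high and 0.02 at normal protein. Slc16a10, an aromatic amino acid transporter, had -0.43 and 0.12.

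**Figure D4:**
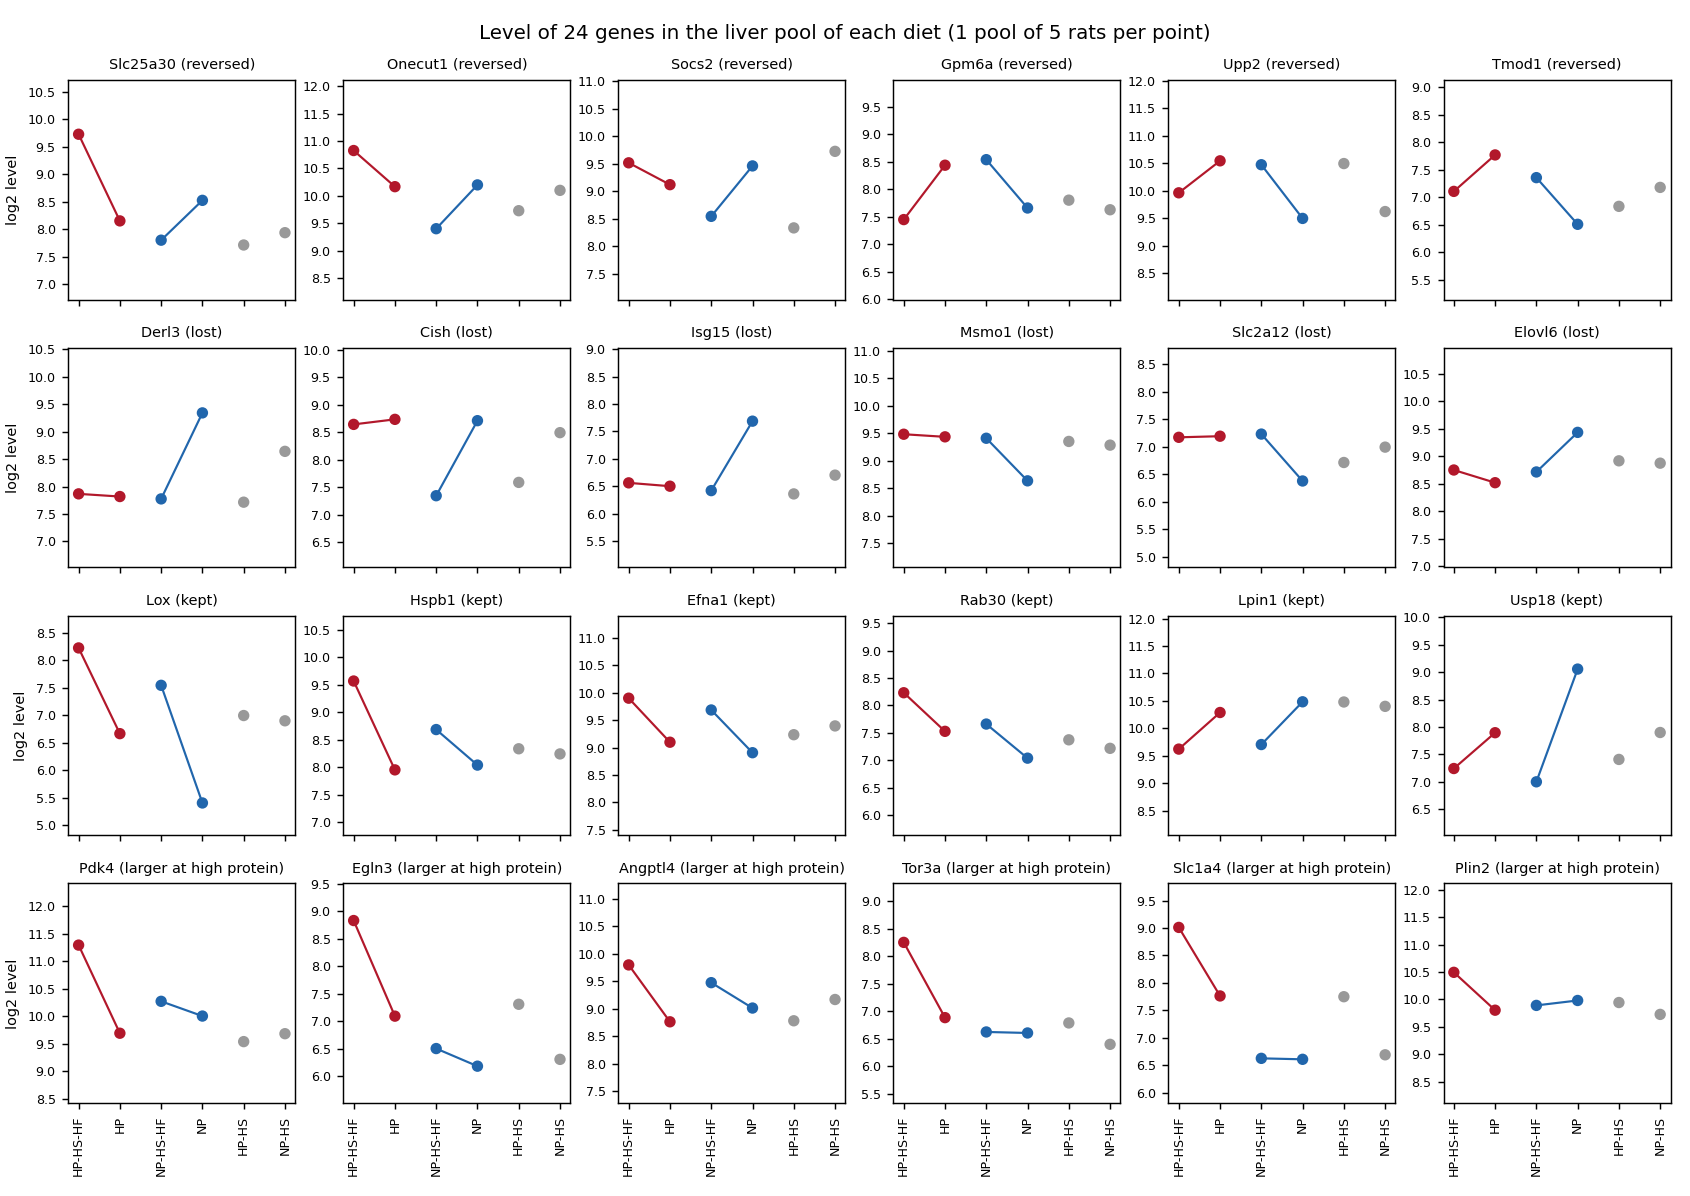
Log2 level of 24 genes in each pool of 5 rats, with red for HP-HS-HF and HP, blue for NP-HS-HF and NP, and grey for HP-HS and NP-HS, which did not enter the comparison. Every panel spans the same log2 range. Lines join the pools whose difference is the response: their slopes are opposite in the reversed genes (Slc25a30, Onecut1, Gpm6a) and alike in the kept ones (Lox, Efna1, Lpin1).

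Lipogenic genes, the enzymes that make fatty acids and triglycerides, had nearly equal medians at both protein levels, with 3 exceptions among single genes. The list of 24 had a median response of -0.08 at high and -0.09 at normal protein. Fasn, fatty acid synthase, had -0.01 and -0.20, and Acly, ATP citrate lyase, had -0.07 and -0.20. Scd, the stearoyl-CoA desaturase, was at 11.13 in HP-HS-HF against 11.74 in HP, and at 12.46 in NP-HS-HF against 12.79 in NP, lower at both protein levels. Elovl6, which elongates palmitate, was lost, at 8.75 in HP-HS-HF against 8.52 in HP, and at 8.72 in NP-HS-HF against 9.44 in NP. Pnpla3, a lipid droplet protein, was reversed, at 6.48 in HP-HS-HF against 6.18 in HP, and at 6.46 in NP-HS-HF against 7.13 in NP. In both the NP pool was the highest, and with the high sucrose pools as the reference their differences of the responses turned to -0.01 and -0.18. The third exception, Lpin2, a relative of Lpin1, had -0.21 at high and 0.44 at normal protein. These 3 had a difference of the responses of 1.5-fold or more, as did 2.18 percent of all named genes and 3.29 percent of all probe sets.

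Amino acid breakdown, the programme a high protein diet feeds, had small opposite medians. Over 39 genes the median response was -0.05 at high and 0.08 at normal protein, and the difference of the responses was below 0 for 31 and above 0 for 8, where 46.7 percent of all named genes were above 0. Of the 39, only Acmsd and the betaine methyltransferase Bhmt had a difference of 1.5-fold or more (2.18 percent of all named genes). Bhmt was at 12.08 in HP-HS-HF against 12.45 in HP, and at 12.48 in NP-HS-HF against 12.23 in NP. The urea cycle list of 8 had medians of -0.09 and 0.06, gluconeogenesis with 16 genes -0.08 and -0.02, and fructose and glucose use with 15 genes -0.12 and -0.06. In these 3 lists 0 genes differed by 1.5-fold at either protein level.

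**Figure D5:**
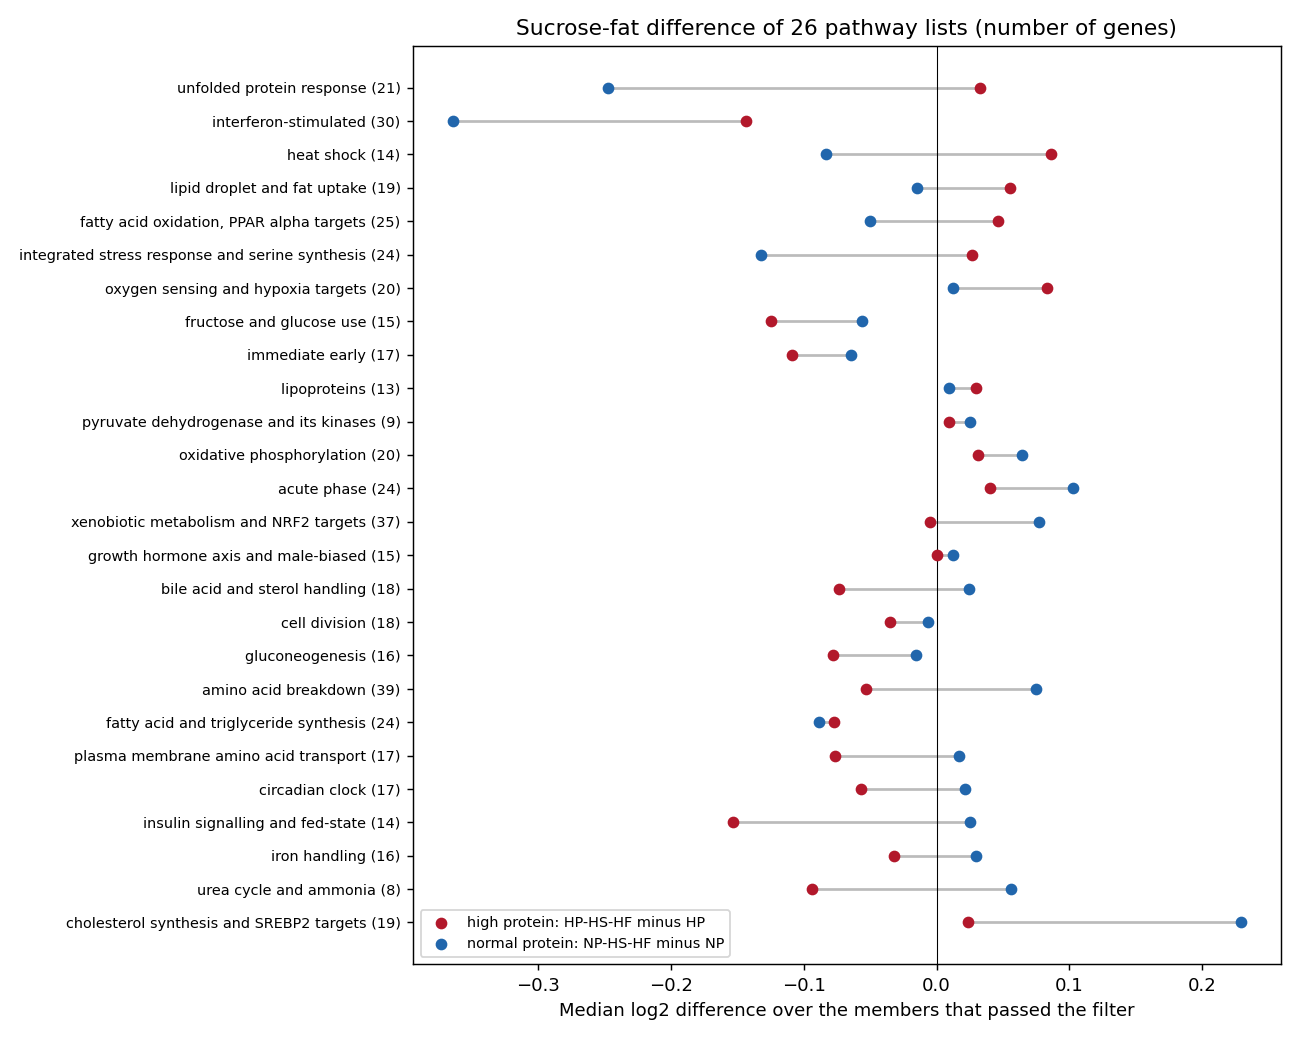
For 26 pathway lists, red points give the median log2 difference between HP-HS-HF and HP and blue points that between NP-HS-HF and NP, over the number of genes in brackets. The widest gaps are those of cholesterol synthesis (0.02 and 0.23), the unfolded protein response (0.03 and -0.25) and interferon-stimulated genes (-0.14 and -0.36).

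Markers of cell types differed by less than 1.5-fold with few exceptions. Over the 9 lists other than hepatocyte markers, median responses lay between -0.15 and 0.15 at high protein and between -0.11 and 0.19 at normal protein. Among the 11 markers of stellate cells and fibroblasts that passed the filter, Lox differed by 1.5-fold at both levels and the other 10 at neither. The difference of the responses was 1.5-fold or more for 3 markers (2.18 percent of all named genes). These were the proteoglycan Dcn at -0.65, the periportal marker Cdh1 at -0.60 and the pericentral marker Slc1a4 at 1.23. The collagens Col1a1 and Col1a2 lay between 7.8 and 8.0 in all 6 pools. Bile duct markers had medians of 0.15 at high and -0.10 at normal protein over 6 genes, and red cell markers -0.10 and 0.19 over 3, of which 0 differed by 1.5-fold. Their part in the results above was not tested.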

How the data were processed

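Liver RNA pools of 6 diets were measured on Affymetrix whole-transcript arrays. The deposited log2 values were summarised per probe set with RMA, per the submitters' processing notes, and range from 2.40 to 13.92. RMA's version and settings were not given in the sources used here, and the number of arrays limits the precision.

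Gene names came from the platform annotation, in which 15310 probe sets had 1 gene symbol, 323 several and 13581 were not listed. Of the 15310, 15279 matched RefSeq by Entrez number. Probe sets with several symbols named no gene, and for several probe sets of a symbol the one with the highest mean was used. Probe sets whose mean over 6 arrays lay above the 30th percentile (log2 5.14) entered. Differences were taken in Python 3.11.15 with pandas 2.3.3, and limma 3.58.1 gave the alternative normalisations. The code for the classes was run on simulated data with set responses and little noise, which checks the code and not the classes of these pools. No model was fitted, because no diet had a replicate.

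Lists of genes (26 of pathways, 10 of cell types) and the rule for named genes were chosen with earlier results of these data known. The rule took the 15 largest differences of the responses each way, up to 8 genes per class and direction, and list members of 1.5-fold or more, otherwise the 2 largest of a list. Genes named outside this rule (Angptl4, Scd, P4ha1, Fgf21, Cpt1a, Ehhadh, Fasn, Acly, Igf1, Igfbp1, Ghr, Cyp2c11, Cyp2c12, Hspa5, Vegfa, Slc2a1, Pdk1, Per1, Per2, Nr1d1, Idi1, Cyp51, markers and limit genes) were chosen for their roles after their values were seen. Counts by farthest pool, counts without interferon-stimulated genes, and the motifs were added after the data were seen.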

Additional observations from a re-analysis of the deposited data

Results flagged for a closer look

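These 12 named genes had a response of 1.5-fold or more at normal protein and one of 1.2-fold or more in the opposite direction at high protein. With 1 pool per diet, the difference between the protein levels was not tested. Lower at normal protein and higher at high protein, with the difference of the responses on the log2 scale, were Slc25a30 at 2.30, Onecut1 at 1.46, Socs2 at 1.32, Cd80 at 1.25, Creld2 at 1.13, Or4k48 at 1.13 and Pnpla3 at 0.97. Of these, Cd80 had a value below the filter level in the NP-HS-HF pool. Higher at normal protein and lower at high protein were Gpm6a at -1.87, Upp2 at -1.56, Tmod1 at -1.51, Slc35c2 at -1.10 and Xpa at -0.90. No diet had the 4 samples that a search for outlying samples needs.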

How the results depend on the processing

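No paired analysis was possible because each diet had 1 pool, and for the same reason no replicate could be left out. Centring arrays on their medians, quantile normalisation and cyclic loess kept all 13 counts within 1.5 times, as did leaving out interferon-stimulated genes. All 79 named genes with a difference of the responses of 1.5-fold or more kept their direction under the 3 scalings. They were chosen for that size in the same arrays, so a kept direction is no independent support. With the mean of the low fat and high sucrose arrays as the reference, 79 of 79 kept their direction and 52 were still 1.5-fold or more. That reference still holds the low fat arrays. With the high sucrose arrays as the reference, 70 of 79 kept it and 30 were still 1.5-fold or more. Those that turned were Tmod1 (0.09), A2m (0.11), Pnpla3 (-0.18), Slc2a12 (0.22), Msmo1 (0.01), Prlr (-0.48), Elovl6 (-0.01), Sqle (0.17) and Aurka (-0.14), with the median of cholesterol synthesis (0.02). The reference then is another diet, and the cause was not tested.

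Without a filter, more probe sets entered: 1171 differed by 1.5-fold (625 higher, 546 lower), 40 were kept, 28 opposite at 1.5-fold in both, 206 lost (101 nearer NP, 105 nearer NP-HS-HF), 86 reversed and 216 gained, that is 1.5-fold at high and under 1.2-fold at normal protein. Above the 50th percentile fewer entered: 423 differed (213 higher), 12 were kept, 6 opposite, 79 lost (33 nearer NP), 22 reversed and 72 gained. Averaged per symbol, 245 differed (118 higher, 127 lower), 6 were kept, 4 opposite, 27 partly kept, 42 lost (14 nearer NP, 28 nearer NP-HS-HF), 12 reversed and 36 gained. With the high sucrose arrays as the reference 31 were partly kept and 19 opposite. With the mean reference 364 differed (202 higher, 162 lower), 67 were lost (28 nearer NP-HS-HF) and 31 partly kept. A response limit of 2-fold gave 3 kept, 13 partly kept, 13 lost, 5 reversed and 15 gained, and one of 1.3-fold gave 109 kept, 603 lost, 127 reversed and 651 gained. Calling lost under 1.1-fold gave 69 lost, 84 partly kept, 62 reversed and 75 gained, and under 1.3-fold 28 partly kept. Dim probe sets limit the counts: of 8764 below the filter, 5.68 percent had a difference of the responses of 1.5-fold or more.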

Other observations

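Some genes were lower with sucrose and fat by 1.5-fold or more at high protein and by less than 1.2-fold at normal protein. Among them was Fkbp5, a co-chaperone induced by glucocorticoids. Its level was 8.22 in HP-HS-HF against 9.09 in HP, and 8.58 in NP-HS-HF against 8.83 in NP. Blvra, which makes bilirubin, was at 6.41 in HP-HS-HF against 7.31 in HP, and at 6.89 in NP-HS-HF against 7.03 in NP. The membrane protein Megf9 was at 8.81 in HP-HS-HF against 9.63 in HP, and at 9.56 in NP-HS-HF against 9.71 in NP. In each, HP-HS-HF was the lowest of the 4 pools and HP-HS (9.29, 6.82 and 9.64) was above it.

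Partly kept responses included Nqo1, a quinone reductase and NRF2 target, higher by 0.35 at high and by 0.89 at normal protein, and the clock activator Bmal1, higher by 0.35 and 0.83. Gadd45g, a stress-induced growth inhibitor, was lower by 0.52 and 1.06. Clock repressors were not alike: Per1 differed by -0.40 and -0.37, Nr1d1 by -0.41 and -0.22, and Per2 by 0.02 and -0.02. The largest difference of the responses of all was that of probe set 10801973, which the annotation does not list, at 7.11 in HP-HS-HF against 8.69 in HP, and at 8.60 in NP-HS-HF against 6.45 in NP.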
